A study of Mus musculus with 36 samples.

Results

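Alveolar macrophages grown in the lung from transferred bone marrow monocytes were compared with alveolar macrophages that had been taken from an adult lung and put back into a new one. The comparison rests on the 4 arrays of BM-derived alveolar macrophages and the 4 arrays of retransferred alveolar macrophages, 8 of the 36 arrays of the series, chosen by their titles. It was made over 12244 genes, those measured by a probe set with 1 gene symbol and above the median of the whole table in at least 4 arrays. Levels are log2 values normalised by RMA, so a difference of 1 is a 2-fold change, and the table median was 4.62.

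BM-derived alveolar macrophages came from adult bone marrow monocytes of wild type C57BL/6 mice aged 6 to 12 weeks, instilled through the nose into newborn Csf2rb-/- mice and sorted from the lavage 6 weeks later. Retransferred alveolar macrophages followed the same route, but the donor cells were alveolar macrophages lavaged from adult wild type mice of 6 to 12 weeks. The donor cells carried both CD45.1 and CD45.2, and the descendants were sorted by these congenic markers. Native alveolar macrophages from the lavage of untransferred wild type C57BL/6 mice aged 6 weeks, with the CD45 label CD45.1+CD45.2 (4 arrays), served as a common outside point, and the 2 donor populations, BM monocytes and adult alveolar macrophages, were measured before transfer (4 arrays each). Descendants of fetal liver monocytes and of yolk sac macrophages, called FL-derived and YS-derived below, had gone through the same transfer. The labels call the arrays biological replicates but do not say how many animals each pooled, and they name no sort marker beyond CD45. Unlike the BM-derived cells, the retransferred cells had already matured in an adult lung before they were lavaged, so cell origin and this earlier residence cannot be told apart.

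Alveolar macrophages are the resident phagocytes of the air spaces, where they clear surfactant and inhaled particles. In mice they are normally seeded before birth from fetal liver monocytes and maintain themselves locally under GM-CSF, which acts through a receptor whose common beta chain is encoded by Csf2rb and which induces the nuclear receptor PPAR-gamma. Recipients without Csf2rb do not form functional alveolar macrophages, so the niche is open to transferred cells.

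Both populations carried the marker profile of alveolar macrophages. All 9 measured defining markers (Siglecf, Car4, Pparg, Fabp4, Itgax, Marco, Chil3, Plet1 and Atp6v0d2) lay above the table median, with group means of 8.68 to 13.02 in BM-derived and 9.33 to 12.86 in retransferred macrophages. The B cell, eosinophil and erythroid defining markers that were measured lay below the median in both groups. Of other cell types, Cd3e (T cells, 5.03 in BM-derived and 5.18 in retransferred macrophages), Ccr7 (dendritic cells, 5.10 and 5.04) and Col1a1 (stroma, 5.50 and 5.52) lay above it in both groups, as did 2 of 4 epithelial markers in each group, and the neutrophil gene Camp lay above it in retransferred macrophages (4.58 in BM-derived and 4.79 in retransferred macrophages). Of the 4 measured defining markers of classical monocytes, Ccr2 and S100a8 lay above it in both. Pearson's r over the genes tested averaged 0.9750 between a BM-derived and a retransferred array, 0.9799 within BM-derived and 0.9778 within retransferred macrophages, and 0.8444 between BM monocytes and adult alveolar macrophages. In a principal component analysis of the 8 arrays, retransferred replicates 3 and 4 lay apart from the other 6 on the first component (27.7% of the variance), at -17.0 and -29.7 against -0.47 to 18.7.

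Few genes separated the populations. At a Benjamini-Hochberg adjusted p under 0.05 in limma, 52 of 12244 genes (0.425%) were called: 19 were higher in BM-derived macrophages (0.155%) and 33 were lower (0.27%). The change was at least 2-fold for 8 of the higher and 20 of the lower genes. For comparison, 4254 genes (34.7%) were called between the donor populations. The 4 BM-derived and 4 retransferred arrays did not overlap for 14 of the 19 higher and 31 of the 33 lower genes, and for 4.95% of all genes tested. For 11725 genes (95.8%) the 95% confidence interval of the difference lay within a 2-fold change in either direction. The median standard error was 0.17 on the log2 scale and the median difference over all genes was 0.01. When only the 8 arrays were fitted, 32 genes were called, of which 25 were among the 52: 20 of the 33 lower and 5 of the 19 higher genes. Without BM-derived replicate 1 the count was 29, and without retransferred replicate 3 it was 30. The plot of difference against level shows that the lower genes reached further from 0 than the higher ones.

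**Figure D1:**
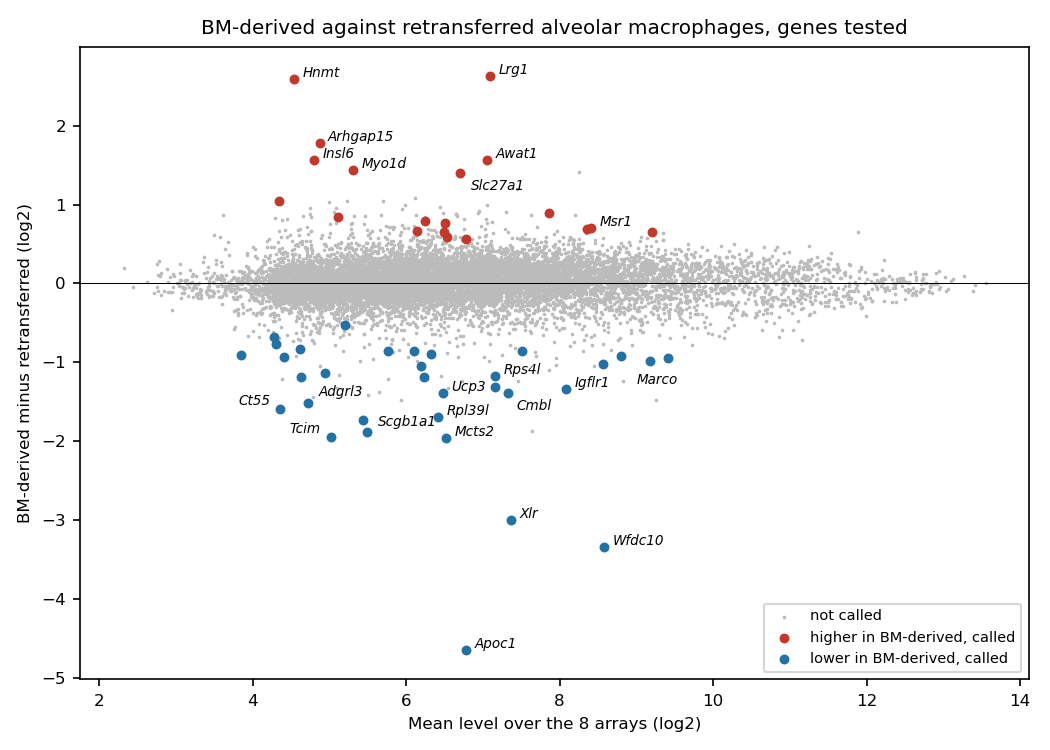
Difference between BM-derived and retransferred alveolar macrophages (log2, vertical axis) against the mean level over the 8 arrays (log2, horizontal axis), 1 point per gene tested, with the 19 genes called higher in BM-derived macrophages in red and the 33 called lower in blue. Apoc1, Wfdc10 and Xlr lie lowest, at -4.66, -3.34 and -3.0, and Lrg1 and Hnmt highest, at 2.64 and 2.59.

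The largest difference was the low level of Apoc1 in BM-derived macrophages. Apoc1 encodes apolipoprotein C-I, a small exchangeable lipoprotein component that macrophages secrete. Its level was 4.87, 3.97, 4.01 and 4.97 in the BM-derived arrays, against 9.24, 8.31, 9.27 and 9.61 in the retransferred arrays. Every BM-derived array lay far below every retransferred one, and 2 of the 4 lay under the table median. The difference was -4.66 ± 0.43 (log2 ± SE, adjusted p = 1.56e-08). Because the arrays give no detection call, a group mean under the table median was replaced by that median for folds, which makes Apoc1 at least 22.4-fold lower. Apoc1 was high elsewhere: it averaged 9.11 ± 1.15 in FL-derived, 9.02 ± 0.69 in YS-derived and 8.54 ± 0.45 in native macrophages (SD, n = 4 each). The BM monocytes themselves expressed it at 8.29 ± 0.53, against 9.13 ± 0.75 in adult alveolar macrophages, a donor difference that was not called (-0.84, adjusted p = 0.13). The low level was found in the descendants and not in the donor monocytes. The tested genes next to Apoc1 did not share it. Apoe, which encodes the main apolipoprotein of macrophages, differed by -0.44 ± 0.30 (adjusted p = 0.698). Apoc4 differed by 0.01 ± 0.11 (adjusted p = 0.988) and Tomm40 by -0.03 ± 0.15 (adjusted p = 0.979), and Apoc2 was not analysed here. Elsewhere on chromosome 7, outside the 5 genes on either side of Apoc1, Trappc6a was also called lower (-1.02 ± 0.18, adjusted p = 0.00238).

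Wfdc10 and Xlr were lower in BM-derived macrophages and were also low in the monocytes they came from. Wfdc10 belongs to the family of small secreted proteins with a whey acidic protein domain, many of which inhibit proteases. It had levels of 6.97, 6.00, 7.22 and 7.47 in BM-derived macrophages, against 10.25, 10.09, 10.53 and 10.14 in retransferred macrophages. The groups lay far apart, with a difference of -3.34 ± 0.27 (10.1-fold lower, adjusted p = 9.58e-10). BM monocytes had 5.15 ± 0.45, against 10.43 ± 0.16 in adult alveolar macrophages (SD, n = 4 each), so the BM-derived level lay between the donor monocyte and the resident macrophage. FL-derived macrophages averaged 8.28 and YS-derived 9.33.

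Xlr is an X-linked lymphocyte-regulated gene of a family with several similar copies, so its probe set may take signal from relatives. It had 6.66, 5.68, 6.08 and 5.03 in BM-derived macrophages, against 9.01, 8.98, 8.70 and 8.77 in retransferred macrophages. The difference was -3.0 ± 0.31 (8.02-fold lower, adjusted p = 1.35e-07). The monocytes stood at 5.37 ± 0.49, against 8.71 ± 0.25 in adult alveolar macrophages. FL-derived macrophages averaged 7.01 and YS-derived 8.66, the same order of the transferred groups as for Wfdc10. The groups of these and 6 further genes are drawn by array in the plot of levels.

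**Figure D2:**
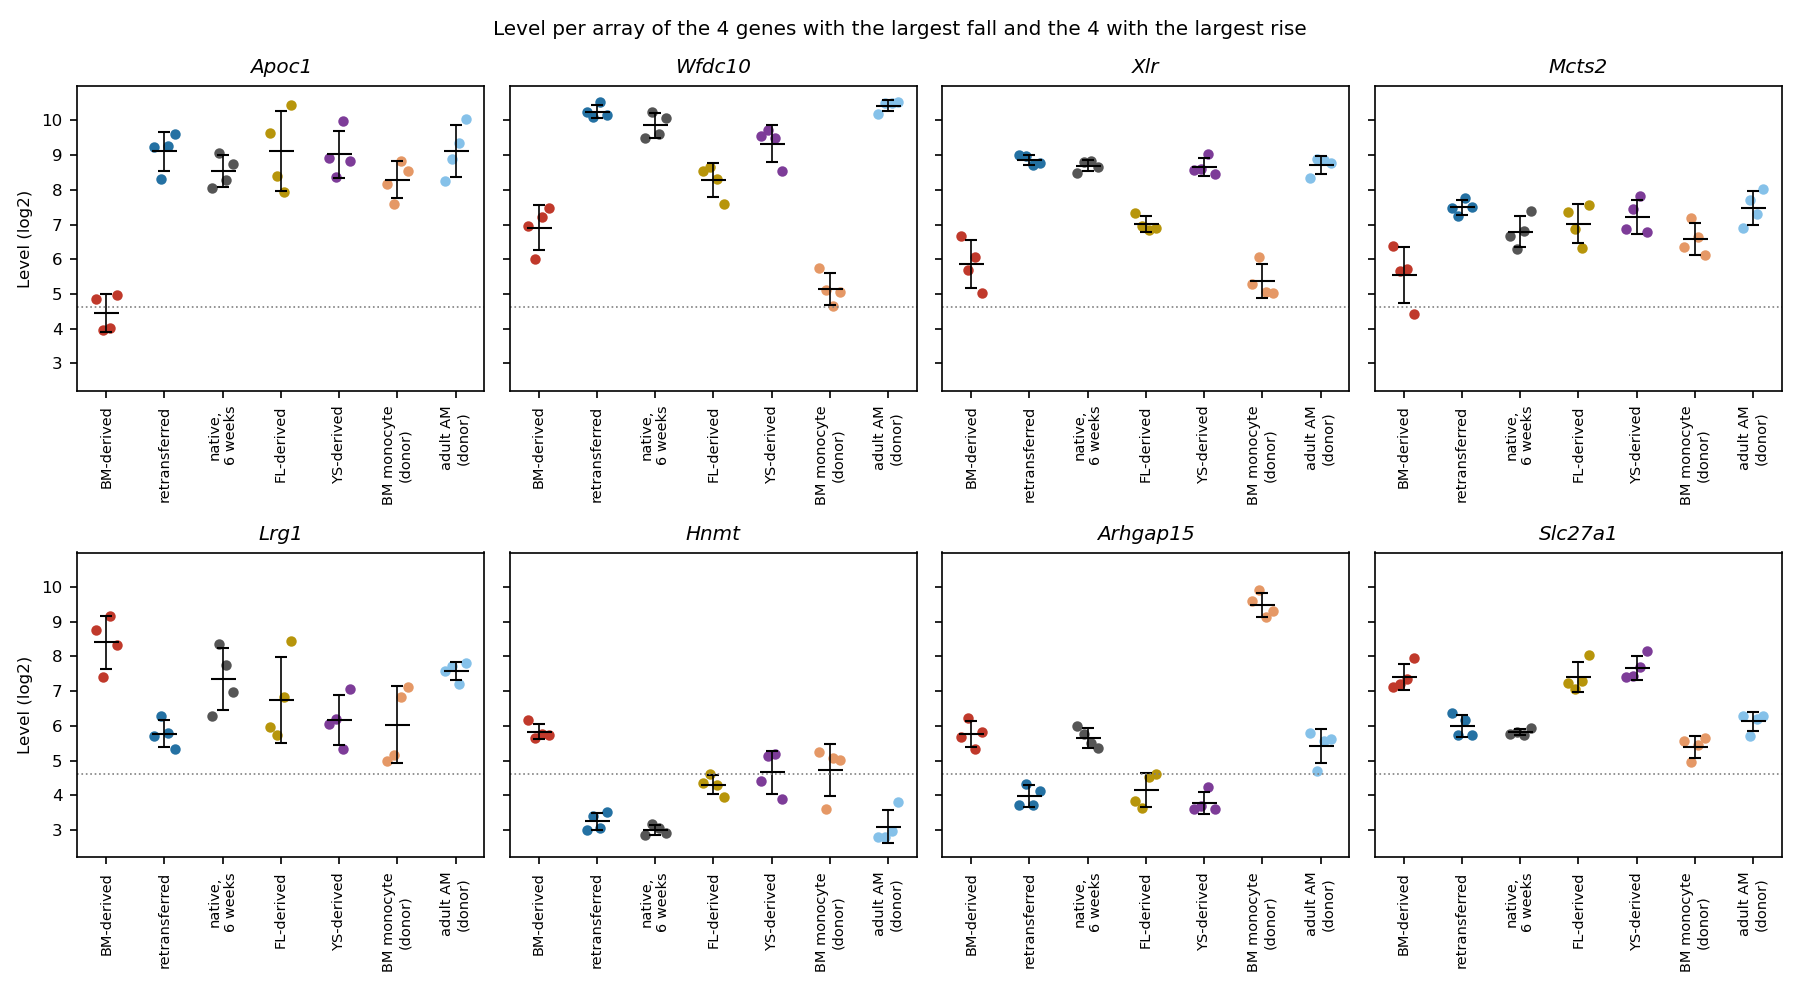
Log2 level of 8 genes on each array (points), with mean and SD (bars), in BM-derived, retransferred, native, FL-derived and YS-derived alveolar macrophages and in the donors, BM monocytes and adult alveolar macrophages. The dotted line is the table median of 4.62; Apoc1 is at 8.29 in BM monocytes but at 4.45 in BM-derived macrophages, while Wfdc10 and Xlr are low in both.

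The promoters of 5 genes with large changes, which do not include Apoc1, are shown because each gene's groups were separated on all arrays, and CG dinucleotides, the sites of DNA methylation in mammals, are in capitals. Each window runs from 250 bases before to 50 bases after the start, 5′ to 3′ on the gene's strand, from RefSeq on GRCm38.p6; of the 52 genes, 40 had an entry. Among the genes that were lower, the windows of Wfdc10 (chr2:164655796-164656095, plus strand), Xlr (chrX:53797657-53797956, minus strand) and Mcts2 (chr2:152686898-152687197, plus strand) read:
Wfdc10: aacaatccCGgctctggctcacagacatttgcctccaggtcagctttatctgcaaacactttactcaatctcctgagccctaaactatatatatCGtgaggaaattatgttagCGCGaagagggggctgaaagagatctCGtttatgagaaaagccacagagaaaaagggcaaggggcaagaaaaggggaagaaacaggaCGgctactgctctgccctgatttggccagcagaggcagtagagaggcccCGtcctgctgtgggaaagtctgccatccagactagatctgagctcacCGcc
Xlr: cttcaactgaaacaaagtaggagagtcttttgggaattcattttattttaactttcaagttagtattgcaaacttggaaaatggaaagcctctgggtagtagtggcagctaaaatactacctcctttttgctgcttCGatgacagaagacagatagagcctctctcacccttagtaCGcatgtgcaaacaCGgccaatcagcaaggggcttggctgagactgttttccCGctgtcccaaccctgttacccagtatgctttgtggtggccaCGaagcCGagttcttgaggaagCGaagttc
Mcts2: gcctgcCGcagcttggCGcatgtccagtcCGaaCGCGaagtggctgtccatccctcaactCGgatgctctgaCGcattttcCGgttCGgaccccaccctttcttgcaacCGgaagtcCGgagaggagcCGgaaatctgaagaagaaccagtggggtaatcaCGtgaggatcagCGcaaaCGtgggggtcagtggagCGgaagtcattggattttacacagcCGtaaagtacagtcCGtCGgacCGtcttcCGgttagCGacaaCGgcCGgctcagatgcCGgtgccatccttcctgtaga
The windows of Lrg1 (chr17:56121897-56122196, minus strand) and Hnmt (chr2:24049330-24049629, minus strand), which had the largest rise, read:
Lrg1: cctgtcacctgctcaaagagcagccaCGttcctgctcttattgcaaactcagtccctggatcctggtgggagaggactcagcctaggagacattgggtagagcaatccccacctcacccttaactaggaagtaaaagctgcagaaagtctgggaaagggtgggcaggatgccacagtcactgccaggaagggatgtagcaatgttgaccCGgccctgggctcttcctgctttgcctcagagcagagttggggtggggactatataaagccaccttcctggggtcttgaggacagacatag
Hnmt: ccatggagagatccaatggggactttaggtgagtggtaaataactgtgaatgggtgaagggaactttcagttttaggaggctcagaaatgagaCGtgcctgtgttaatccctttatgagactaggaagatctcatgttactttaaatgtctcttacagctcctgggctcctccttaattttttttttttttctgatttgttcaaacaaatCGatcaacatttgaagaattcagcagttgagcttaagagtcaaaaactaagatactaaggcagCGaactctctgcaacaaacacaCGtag
The number of CG was 8 for Wfdc10, 7 for Xlr, 25 for Mcts2, 2 for Lrg1 and 4 for Hnmt, against a median of 7 over 32851 promoter windows of this length. As many CG or more were found in 48.6% of windows for Wfdc10, 52.1% for Xlr, 18.4% for Mcts2, 85.9% for Lrg1 and 68.6% for Hnmt. The motif GGAAGT, the core bound by the Ets family including PU.1, was searched on both strands; it occurred 2 times in Mcts2 and 1 time in Lrg1, did not occur in the other 3, and was present in 23.8% of all windows. The motif CACGTG, an E-box that reads the same on both strands, occurred 1 time in Mcts2 and in 7.15% of all windows. Methylation and binding were not measured in these cells.

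Mcts2 and H13 moved in opposite directions from the same stretch of chromosome 2. Mcts2 is a retrogene that lies inside the span of H13, and in mice it is known to be expressed from the paternal allele, with H13 transcripts affected by the same imprinted site. Mcts2 had 6.37, 5.66, 5.73 and 4.42 in BM-derived macrophages, against 7.47, 7.25, 7.77 and 7.51 in retransferred macrophages, a difference of -1.96 ± 0.32 (3.88-fold lower, adjusted p = 0.000586). H13, which encodes signal peptide peptidase, had 9.65, 9.41, 9.63 and 9.43 in BM-derived macrophages, against 8.84, 9.19, 9.05 and 8.44 in retransferred macrophages. The groups did not overlap for either gene, and H13 was 0.65 ± 0.12 higher (1.57-fold, adjusted p = 0.0032). Between the donors the same 2 differences were called, -0.91 for Mcts2 and 0.63 for H13. The neighbours Id1 and Bcl2l1 differed by -0.23 (adjusted p = 0.846) and 0.11 (adjusted p = 0.9). H13 was not called when only the 8 arrays were fitted (adjusted p = 0.249). Mcts2 derives from Mcts1, and the signals of both genes may not be told apart by every probe.

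Marco was the single member of the alveolar macrophage markers to be called. It encodes a scavenger receptor that binds inhaled particles and bacteria. Marco stood at 8.61, 8.65, 8.70 and 8.77 in BM-derived macrophages, against 10.14, 9.61, 9.35 and 9.56 in retransferred macrophages. All 4 BM-derived values were close together and below every retransferred one, and the difference was -0.99 ± 0.18 (1.98-fold lower, adjusted p = 0.00315). In native macrophages Marco had 8.63, 8.85, 8.92 and 9.23, nearer to the BM-derived than to the retransferred level. Against native cells it differed by -0.23 in BM-derived (adjusted p = 0.86) and by 0.76 in retransferred macrophages (adjusted p = 0.0255); these comparisons share the arrays of the main one.

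The other 30 alveolar macrophage markers tested were not called, and all 30 had a 95% confidence interval within a 2-fold change. Over the 31 markers the median difference was 0.10, against 0.01 over all genes. At an unadjusted p under 0.05, 2 were higher and 2 lower, against 5.08% and 3.91% of all genes. All 31 had been called lower in BM monocytes than in adult alveolar macrophages, against 19.2% of all genes, with a median donor difference of -4.83. Pparg, the regulator induced by GM-CSF, had 10.49, 10.29, 10.17 and 9.98 in BM-derived macrophages, against 10.24, 9.88, 10.10 and 9.83 in retransferred macrophages. The groups overlapped, and the difference of 0.22 had an interval of -0.07 to 0.51 (adjusted p = 0.68). Siglecf, the sialic acid receptor used to identify these cells, had 8.85, 9.29, 8.61 and 8.51 in BM-derived macrophages, against 9.53, 9.52, 9.11 and 9.15 in retransferred macrophages. That difference of -0.51 (interval -0.90 to -0.13) did not pass adjustment (adjusted p = 0.369). Intervals ran from 0.09 to 0.68 for Car4 (carbonic anhydrase 4), -0.55 to 0.30 for Fabp4 (fatty acid binding), -0.02 to 0.75 for Itgax (CD11c), -0.26 to 0.53 for the receptor chain Csf2rb, -0.11 to 0.44 for the chitinase-like Chil3 and -0.14 to 0.42 for Plet1.

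**Figure D3:**
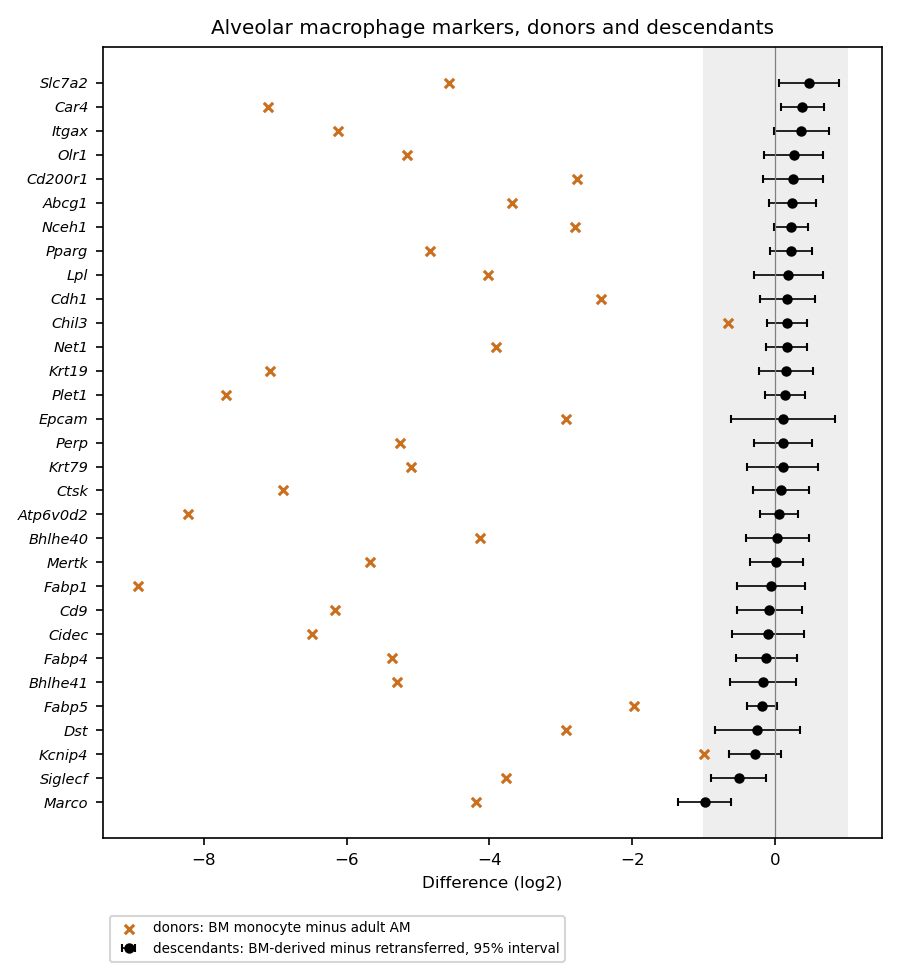
Difference (log2, horizontal axis) for each of the 31 alveolar macrophage markers tested: black points with 95% confidence intervals are BM-derived minus retransferred macrophages, and orange crosses are BM monocytes minus adult alveolar macrophages before transfer. The shaded band is a 2-fold change; every descendant interval but that of Marco lies within it, while every donor difference is negative.

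Other genes that were lower in BM-derived macrophages spanned several functions. Among membrane and signalling proteins, Adgrl3, the adhesion receptor latrophilin 3, had 4.09, 4.44, 3.54 and 3.78 in BM-derived macrophages, against 5.34, 5.86, 5.70 and 5.00 in retransferred macrophages (-1.51 ± 0.24, at least 1.81-fold lower, adjusted p = 0.000466). Igflr1, the IGF-like family receptor, had 7.22, 7.78, 7.27 and 7.40 in BM-derived macrophages, against 8.81, 8.85, 8.53 and 8.83 in retransferred macrophages (-1.34 ± 0.28, 2.52-fold lower, adjusted p = 0.0132). Both genes were also lower in BM monocytes than in adult alveolar macrophages, by 2.64 and 3.60 on the log2 scale. Wwtr1, the Hippo pathway coactivator TAZ, had 6.48, 6.35, 6.58 and 6.58 in BM-derived macrophages, against 8.34, 7.83, 7.63 and 7.45 in retransferred macrophages. Its groups were separated, at -1.32 ± 0.20 (2.5-fold lower, adjusted p = 0.000244). FL-derived and YS-derived macrophages had Wwtr1 at 8.12 and 8.23.

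Of ribosomal protein paralogs, Rps4l had 6.85, 6.86, 6.27 and 6.30 in BM-derived macrophages, against 7.77, 7.73, 7.77 and 7.72 in retransferred macrophages. The retransferred arrays lay close together and above all BM-derived ones (-1.17 ± 0.18, 2.26-fold lower, adjusted p = 0.000271). Rpl39l had 4.71, 4.96, 6.38 and 6.21 in BM-derived macrophages, against 6.80, 7.72, 7.43 and 7.10 in retransferred macrophages (-1.70 ± 0.39, 3.24-fold lower, adjusted p = 0.0379). The Rpl39l call was lost when only the 8 arrays were fitted (adjusted p = 0.14). Both genes resemble their abundant parent genes Rps4x and Rpl39, so shared signal makes their levels less certain. Of a list of 25 other ribosomal protein genes tested, 0 were called by limma. At an unadjusted p under 0.05, 1 of them, the paralog Rps27l, was lower (-0.48, adjusted p = 0.418), against 3.91% of all genes.

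In energy and lipid metabolism, Ucp3, a mitochondrial uncoupling protein, had 6.42, 6.46, 5.48 and 4.75 in BM-derived macrophages, against 7.35, 7.08, 7.25 and 7.01 in retransferred macrophages (-1.39 ± 0.28, 2.63-fold lower, adjusted p = 0.00881). Without BM-derived replicate 3 or replicate 4, Ucp3 was not called. Plaat3, a phospholipase and acyltransferase, and Lyplal1, a lysophospholipase-like hydrolase, were lower by 0.92 and 0.86 on the log2 scale (adjusted p = 0.0408 and 0.019). Cmbl, a hydrolase, was 2.62-fold lower (adjusted p = 0.0438), with arrays of 6.09 to 7.35 in BM-derived and 7.53 to 8.82 in retransferred macrophages. With the 8 arrays alone Ucp3, Plaat3 and Cmbl were not called (adjusted p = 0.191, 0.196 and 0.162). Lyplal1 was called there (adjusted p = 0.0244), but in only 3 of the 8 fits that left out 1 replicate. Tcim, a small regulator of transcription, was at least 2.6-fold lower (adjusted p = 0.00174). Of the remaining genes, Tcaf1, Grk3, Tmem30b, Coro2b and Slc22a17 kept their call under every alternative, at 1.19, 1.18, 1.14, 1.05 and 0.86 below the retransferred level on the log2 scale. Against native macrophages, Tcim, Plaat3, Cmbl, Tcaf1, Tmem30b and Coro2b were called only in retransferred macrophages, where they were higher. Ucp3, Lyplal1, Grk3 and Slc22a17 were called against native only in BM-derived macrophages, where they were lower.

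Scgb1a1, the secretoglobin of airway club cells, was lower in BM-derived macrophages and is a marker of another cell type. It had 5.06, 3.43, 4.19 and 5.52 in BM-derived macrophages, against 5.65, 7.28, 6.66 and 6.17 in retransferred macrophages. The difference was -1.89 ± 0.44 (at least 3.52-fold, adjusted p = 0.0414). The call was lost in 13 of 18 alternatives, among them the fit of the 8 arrays alone (adjusted p = 0.195). Scgb1a1 was 1 of 20 lung epithelium markers tested and the 1 that was called. The mean level of the 27 measured markers other than Scgb1a1 was 5.08 to 5.18 per array in BM-derived and 5.08 to 5.14 in retransferred macrophages, so the ranges overlapped. Among the 4 defining epithelial markers, the surfactant protein genes Sftpc and Sftpb differed by 0.22 (adjusted p = 0.9) and 0.12 (adjusted p = 0.838). The part of epithelial RNA in the Scgb1a1 difference was not tested, and in sorted bulk samples fewer cells of a type and less RNA per cell cannot be told apart.

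Among the genes that were higher in BM-derived macrophages, Lrg1 had the largest difference. It encodes a secreted leucine-rich glycoprotein known to modulate TGF-beta signalling in endothelium. Lrg1 had 8.76, 7.39, 9.17 and 8.31 in BM-derived macrophages, against 5.70, 6.28, 5.79 and 5.32 in retransferred macrophages (2.64 ± 0.49, 6.21-fold higher, adjusted p = 0.00315). The groups did not overlap. Native macrophages had 6.29, 8.34, 7.75 and 6.96, which overlapped the BM-derived range, and their mean of 7.34 lay between those of BM-derived (8.41) and retransferred macrophages (5.77). Before transfer the order was the opposite: Lrg1 averaged 6.03 ± 1.11 in BM monocytes and 7.58 ± 0.27 in adult alveolar macrophages (SD, n = 4 each).

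Hnmt, the enzyme that inactivates histamine by methylation, had 6.17, 5.66, 5.76 and 5.74 in BM-derived macrophages, against 2.99, 3.41, 3.07 and 3.51 in retransferred macrophages. All retransferred arrays lay under the table median, and Hnmt was at least 2.32-fold higher (2.59 ± 0.28, adjusted p = 5.47e-07). Native macrophages had 2.85 to 3.18, and monocytes stood at 4.73 ± 0.76, against 3.09 ± 0.48 in adult alveolar macrophages. Arhgap15, a GTPase-activating protein for Rac, had 5.68, 6.21, 5.34 and 5.82 in BM-derived macrophages, against 3.72, 4.34, 3.73 and 4.14 in retransferred macrophages (1.78 ± 0.24, at least 2.2-fold higher, adjusted p = 3.31e-05). It was high in monocytes, at 9.49 ± 0.35, against 5.41 ± 0.48 in adult alveolar macrophages. Native macrophages had Arhgap15 at 5.36 to 6.00, within the range of the BM-derived arrays, while FL-derived and YS-derived macrophages averaged 4.15 and 3.78, near the retransferred mean of 3.98.

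Slc27a1, the fatty acid transporter FATP1, had 7.12, 7.19, 7.34 and 7.96 in BM-derived macrophages, against 6.38, 5.74, 6.16 and 5.74 in retransferred macrophages (1.40 ± 0.20, 2.64-fold higher, adjusted p = 7.73e-05). FL-derived and YS-derived macrophages had Slc27a1 at 7.41 and 7.67, while native macrophages had 5.73 to 5.93, like the retransferred cells. Lpcat2, which makes platelet-activating factor and phosphatidylcholine, was 0.90 ± 0.19 higher (adjusted p = 0.0178), and Awat1, a wax ester synthase, was 1.56 ± 0.37 higher (adjusted p = 0.0429). Awat1 arrays overlapped, with 8.11, 6.16, 8.72 and 8.35 in BM-derived macrophages and 6.10, 5.98, 6.73 and 6.28 in retransferred macrophages. Neither Lpcat2 nor Awat1 was called with the 8 arrays alone (adjusted p = 0.104 and 0.344).

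Of receptors, Fcgr1, the high-affinity IgG receptor that also marks monocytes, had 8.89, 8.61, 8.87 and 8.40 in BM-derived macrophages, against 7.93, 7.94, 8.0 and 8.15 in retransferred macrophages. It was 0.69 ± 0.14 higher (1.61-fold, adjusted p = 0.0107). Native, FL-derived and YS-derived macrophages averaged 8.56, 8.52 and 8.57, nearer to the BM-derived mean of 8.69 than to the retransferred mean of 8.01. Against native cells Fcgr1 differed by 0.14 in BM-derived (adjusted p = 0.909) and by -0.55 in retransferred macrophages (adjusted p = 0.0399). Msr1, the class A scavenger receptor that takes up modified lipoproteins, had 8.95, 8.29, 8.91 and 8.90 in BM-derived macrophages, against 8.35, 8.14, 7.70 and 8.04 in retransferred macrophages (0.70 ± 0.16, 1.63-fold higher, adjusted p = 0.038). The Msr1 groups overlapped through BM-derived replicate 2. Both transferred populations lay above native macrophages for Msr1, where it was 6.54 to 7.27, and monocytes had 9.50, against 6.52 in adult alveolar macrophages. Hgf, hepatocyte growth factor, was 0.84 ± 0.17 higher (adjusted p = 0.0107), and the cationic amino acid transporter Slc7a1 was 0.67 ± 0.16 higher (adjusted p = 0.0472). The calls of Fcgr1, Msr1, Hgf and Slc7a1 were lost when only the 8 arrays were fitted, with adjusted p of 0.101, 0.278, 0.08 and 0.281.

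**Figure D4:**
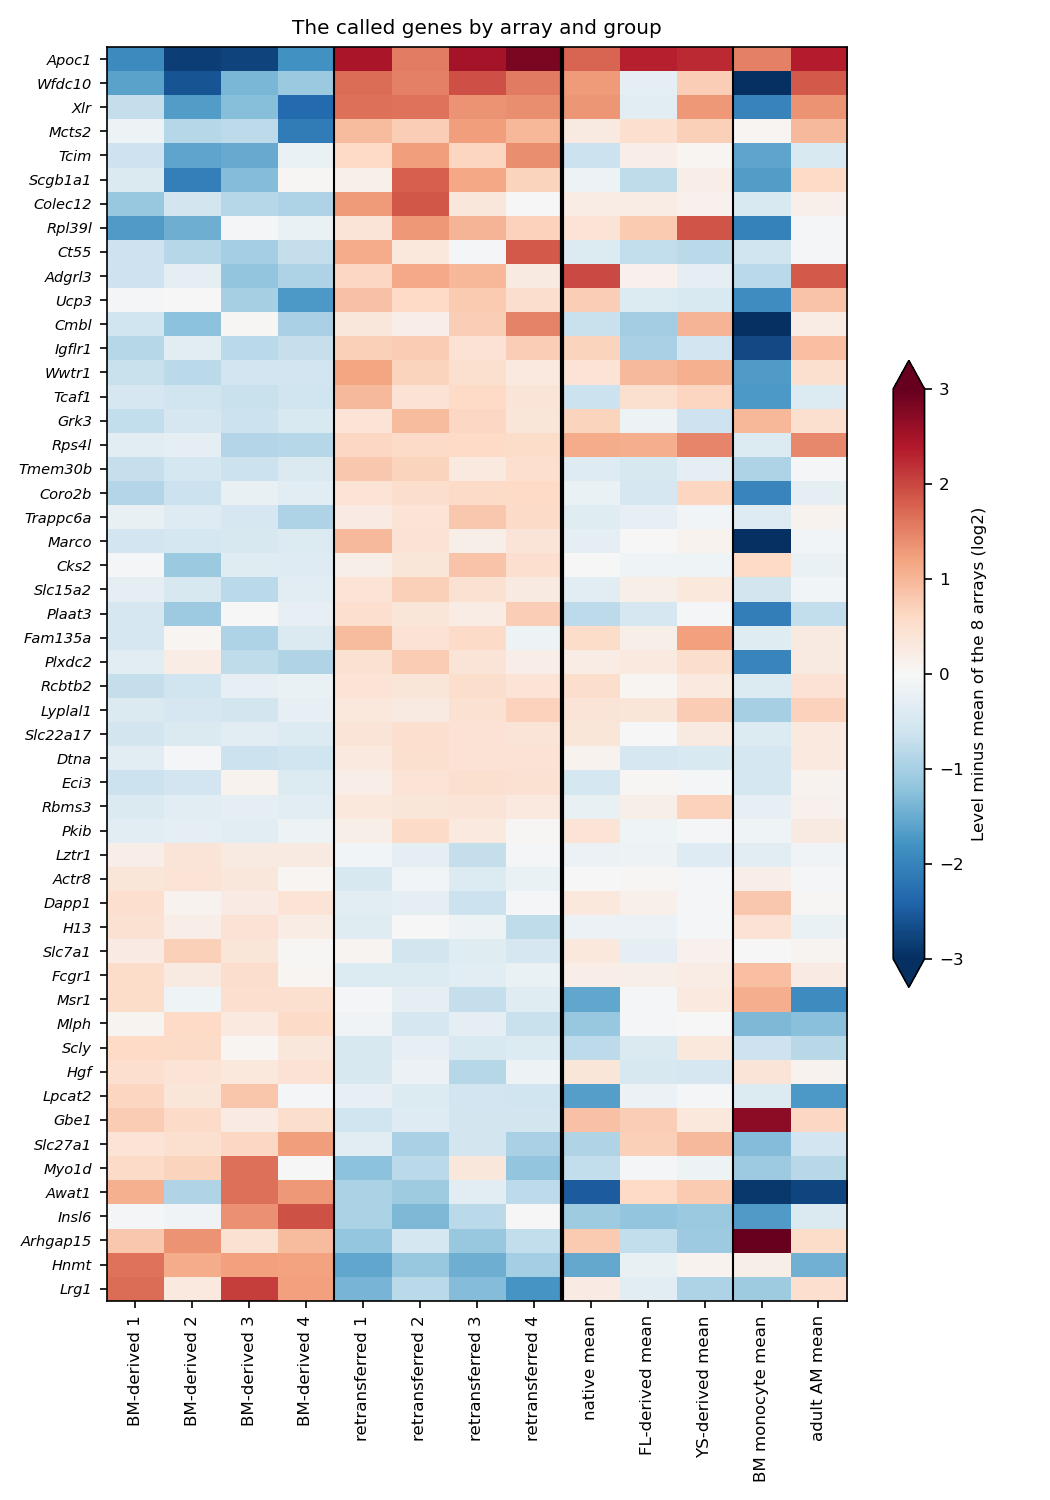
The 52 called genes (rows, from most negative to most positive difference) on the 8 arrays, followed by group means of native, FL-derived and YS-derived macrophages and of both donor populations; colour is the log2 level minus the gene's mean over the 8 arrays, cut at -3 and 3. Genes at the top are blue in BM-derived and red in retransferred arrays and those at the bottom the reverse, with uneven columns such as Awat1 in BM-derived replicate 2.

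Differences between the descendants were set beside the differences between their donors, which come from other arrays. Of the 52 genes, 35 were called between BM monocytes and adult alveolar macrophages in the same direction, 5 in the opposite direction and 12 were not called there; the background is 34.7% of all genes called between donors, 15.6% higher and 19.2% lower. Of the 33 genes lower in BM-derived macrophages, 27 were also lower in BM monocytes, and of the 19 higher genes 8 were also higher in them. The opposite direction held for Lrg1, Insl6 and Slc27a1 among the higher and Grk3 and Cks2 among the lower genes. The count of 35 was 23 when only the arrays compared were fitted, 20 without BM-derived replicate 1 and 22 without retransferred replicate 3.

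Conversely, most donor differences were no longer seen. Of genes called at least 4 log2 units lower in BM monocytes than in adult alveolar macrophages there were 75, with a median donor difference of -4.93 and a median difference of 0.05 between descendants; 2 of them, Wfdc10 and Marco, were called lower in BM-derived macrophages. Of the 58 genes at least 4 units higher in monocytes, the median difference between descendants was 0.06 and 1, Arhgap15, was called higher. Over all genes tested 0.27% were called lower and 0.155% higher in BM-derived macrophages. Both counts are above these shares but rest on few genes. Across all genes tested Pearson's r of the 2 differences was 0.044, and genes are not independent replicates. Of 30 classical monocyte markers tested, 25 were called higher in BM monocytes, against 15.6% of all genes. Of the same 30, 1, Fcgr1, was called higher in BM-derived macrophages, against 0.155% of all genes, with a median difference of 0.00. Ccr2, the receptor that releases monocytes from marrow, was 5.88 higher in the donor monocytes, but had 6.18, 5.44, 5.96 and 5.31 in BM-derived macrophages, against 5.65, 5.50, 5.60 and 5.17 in retransferred macrophages (0.24, interval -0.20 to 0.68, adjusted p = 0.801). The fractalkine receptor Cx3cr1 differed by -0.08 (interval -0.50 to 0.34).

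**Figure D5:**
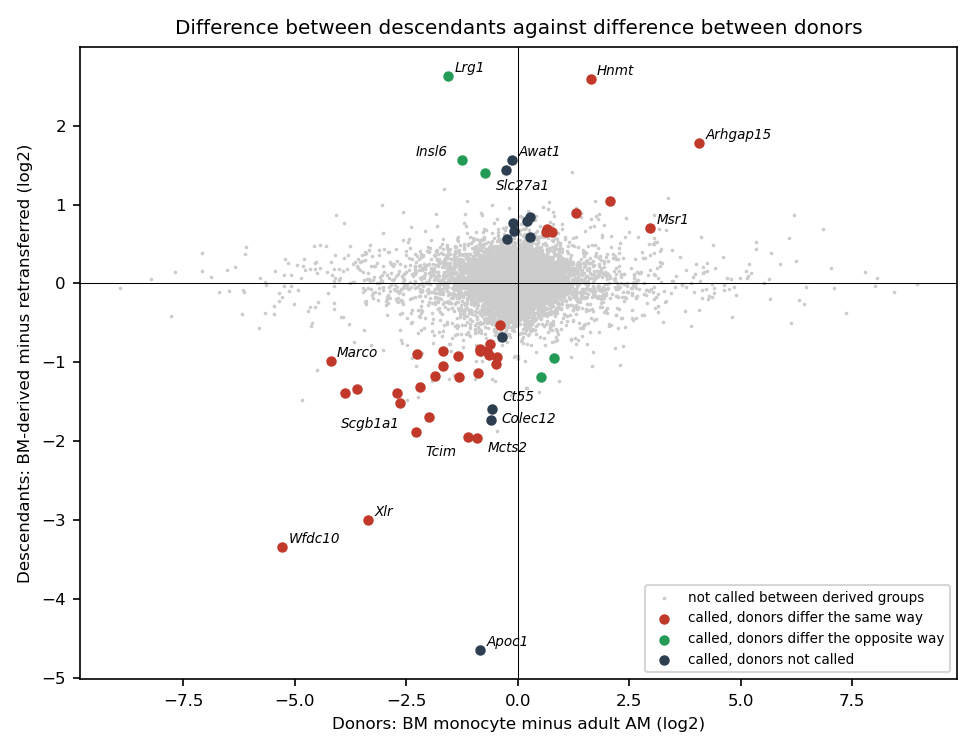
Difference between descendants (BM-derived minus retransferred, log2, vertical axis) against the difference between donors (BM monocyte minus adult alveolar macrophage, log2, horizontal axis), 1 point per gene tested. Grey points spread along the horizontal axis near 0; of the 52 called genes, 35 in red differ the same way between donors, 5 in green the opposite way, and 12 in dark blue, among them Apoc1, were not called between donors.

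Each population was also compared with native alveolar macrophages; these comparisons share native arrays with each other and BM-derived or retransferred arrays with the main one. BM-derived macrophages differed from native in 160 genes (1.31%; 101 higher, 0.825%, and 59 lower, 0.482%), and retransferred macrophages in 131 genes (1.07%; 93 higher, 0.76%, and 38 lower, 0.31%). For Apoc1 the difference from native was -4.08 in BM-derived (adjusted p = 1e-07) and 0.57 in retransferred macrophages (adjusted p = 0.753). For Wfdc10 it was -2.94 in BM-derived (adjusted p = 6.54e-09) and 0.40 in retransferred macrophages (adjusted p = 0.717), and for Hnmt 2.84 (adjusted p = 4.95e-08) and 0.25 (adjusted p = 0.866). In these 3 genes the BM-derived cells stood away from native. The reverse held for Tcaf1, at 0.06 in BM-derived (adjusted p = 0.975) and 1.25 in retransferred macrophages (adjusted p = 2.83e-05), and for Arhgap15, at 0.11 in BM-derived (adjusted p = 0.968) and -1.68 in retransferred macrophages (adjusted p = 4.08e-05). Adgrl3 lay below native in both, at -2.73 in BM-derived (adjusted p = 5.19e-09) and -1.22 in retransferred macrophages (adjusted p = 0.00409).

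Among the 4 transferred populations, the BM-derived mean was the lowest for 27 of the 33 lower genes and the highest for 16 of the 19 higher genes. The retransferred mean was the highest for 23 of the 33 and the lowest for 14 of the 19. These counts describe genes chosen for this difference and were not tested.

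Of 42 gene lists, some of which share members, 7 held a called gene. Over all genes 0.425% were called, so most lists of this size would hold none. A count of 1 in such a list is above that share but rests on a single gene, and no list was tested as a set. Of 33 genes tested for the uptake, storage or efflux of lipid, 1 was called higher (Msr1) and 1 lower (Apoc1), with a median difference of 0.08. The fatty acid receptor Cd36 had 10.67, 10.58, 10.24 and 10.32 in BM-derived macrophages, against 10.96, 10.87, 10.79 and 10.74 in retransferred macrophages, and -0.39 did not pass adjustment (adjusted p = 0.282). Of 33 scavenger and phagocytic receptors, Msr1 was called higher and Marco lower, and 8 were higher and 3 lower at an unadjusted p under 0.05, against 5.08% and 3.91% of all genes. Fcgr1 was the called gene of 23 Fc and Siglec receptors. The ribosomal protein paralog Rps4l was the called gene of a list made for haematopoietic origin and Hox genes (17 tested).

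No gene was called by limma in lists of cholesterol synthesis (20 tested, 1 at an unadjusted p under 0.05), fatty acid oxidation (29 tested, 2), lysosome (46 tested, 5), cell cycle (43 tested, 4), GM-CSF receptor signalling (18 tested, 2) and TGF-beta signalling (25 tested, 4). Over all genes 8.99% had an unadjusted p under 0.05, 5.08% higher and 3.91% lower. Some other lists without a called gene leaned to 1 side at that p. Matrix and protease genes (23 tested) had 6 higher and 0 lower, and complement genes (10 tested) 4 and 0. Inflammatory mediators (33 tested) had 1 higher and 3 lower. The 46 lysosomal genes all had intervals within a 2-fold change. Of them 38 had positive differences, against 52.3% of all genes, and their median was 0.13. Mki67, the proliferation antigen, had 6.22, 6.85, 7.21 and 6.85 in BM-derived macrophages, against 7.50, 7.17, 7.21 and 6.18 in retransferred macrophages (-0.23, adjusted p = 0.916). The MHC class II gene H2-Aa varied widely within groups, at 10.50, 9.16, 10.96 and 10.77 in BM-derived macrophages and 10.58, 11.29, 11.12 and 10.75 in retransferred macrophages, and its interval of -1.50 to 0.33 left a 2-fold difference possible.

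Of 29 interferon-response genes tested, 0 passed in limma, 27 had a positive difference, 5 were higher at an unadjusted p under 0.05 and the median was 0.35. Over all genes 52.3% had a positive difference, 5.08% were higher at an unadjusted p under 0.05 and the median was 0.01. Irf7, the transcription factor that amplifies interferon production, had 6.25, 5.15, 6.03 and 6.58 in BM-derived macrophages, against 5.33, 5.67, 4.67 and 5.63 in retransferred macrophages (0.68, adjusted p = 0.413). Oas1a, a sensor of double-stranded RNA, had 8.22, 7.62, 8.47 and 8.15 in BM-derived macrophages, against 7.14, 7.34, 7.38 and 8.24 in retransferred macrophages (0.59, adjusted p = 0.5). Both overlapped between groups. The list mean per array was 5.29 to 6.00 in BM-derived, 5.20 to 5.61 in retransferred and 5.08 to 5.32 in native macrophages. In the donors 25 of the 29 were called higher in monocytes, against 15.6% of all genes. For this list a link to the donor difference was not tested.

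RNA of both sexes was present on every transferred array. Xist, the X inactivation transcript of female cells, was 6.96 to 8.12 in BM-derived and 7.99 to 8.63 in retransferred macrophages, and the Y-linked Eif2s3y was 6.67 to 7.42 in BM-derived and 5.78 to 7.34 in retransferred macrophages. Neither was called (adjusted p = 0.889 and 0.903). The shared spread takes in the native arrays, whose SD was 2.95 for Xist and 2.96 for Eif2s3y. These tests therefore cannot decide whether the mix of sexes differed. BM-derived minus retransferred was -0.56 for Xist and 0.49, 0.61 and 0.62 for the Y-linked Eif2s3y, Kdm5d and Uty. Uty arrays did not overlap (5.04 to 5.57 in BM-derived, 4.30 to 5.00 in retransferred macrophages). Kdm5d and Uty were not called (adjusted p = 0.659 and 0.726). Of the called genes, 3 lie on the X chromosome: Xlr, Ct55 and Awat1. Xlr had 8.49, 8.79, 8.84 and 8.66 on native arrays, where replicates 1 and 4 had Xist at 4.31 and 3.73 and replicates 2 and 3 had it at 8.99 and 9.24.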

How the data were processed

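Sorted cells were measured on 36 Affymetrix Mouse Gene 1.0 ST arrays, 9 groups of 4 by title. The table the authors deposited gives log2 levels for 35556 probe sets; according to the submitters' processing notes RMA was used (no version is named). RMA equalises the arrays' distributions, which removes shifts shared by most genes and compresses changes of dim genes. The platform annotation, which can be old, names 1 gene for 21789 probe sets, several for 1621 and none for 12146. Symbols were updated by Entrez identifier through RefSeq on GRCm38.p6 (21698 matched, 91 kept the old symbol), used for names, neighbours and promoters. For 999 genes with several probe sets the brightest on average was kept, giving 19938 genes; 12244 exceeded the table median of 4.62 in at least 4 arrays.

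In limma 3.58.1 (R 4.3.3; lmFit, eBayes), all 36 arrays entered a model of 9 group means with a shared spread per gene. The 4 contrasts below were tested, each adjusted by Benjamini-Hochberg over all genes, with a call at an adjusted p under 0.05. The fit was tested on simulated data. It recovered 19 of 50 genes shifted by 0.5 on the log2 scale and 43 of 50 shifted by 1. Of its 173 calls, 11 (6.36%) were false. Small differences can therefore be missed. The arrays' number limits the precision, and the labels name no scan or hybridisation batch. Each p-value sets a difference against the spread within the 9 groups, shared over all 36 arrays and not only those compared.

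The comparison, gene lists and named genes were chosen with earlier results of these data known. Named by rule were a marker panel, called list members and up to 15 of the largest called changes without overlap in each direction (15 lower and 14 higher). So were up to 8 genes per direction shared with or opposite to the donor difference. Id1, Bcl2l1, Apoc4, Tomm40, Cd36, Irf7, Oas1a, Mki67, Sftpc, Sftpb and Rps27l were added after their values were seen. The same holds for Cd3e, Ccr7, Col1a1, Camp, Xist, Eif2s3y, Kdm5d, Uty and further called genes. Alternatives covered filter, variance prior, centring, quantile normalisation, probe set summary, array weights, the arrays fitted, the replicate block and leaving out each replicate.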

Additional observations from a re-analysis of the deposited data

Results flagged for a closer look

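In 65 genes and both groups, 130 sets of 4 arrays were examined for a single array far from the other 3. Such an array was found in 3 of the 130 sets. Chance gives about 1 in 20 sets, so this count is no higher than chance gives. The 3 sets are therefore listed by their values only. Msr1 on BM-derived replicate 2 was 8.29, against 8.90 to 8.95 on the other 3 BM-derived arrays. Actr8, a subunit of the INO80 chromatin remodeller, was 6.58 on BM-derived replicate 4, against 6.88 to 6.94 on the others. Igflr1 was 8.53 on retransferred replicate 3, against 8.81 to 8.85 on the others.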

How the results depend on the processing

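The count of 52 genes between BM-derived and retransferred macrophages was 45 to 71 under other filters, variance priors, centring, normalisation, probe set summaries and array weights. It was 32 (8 higher, 24 lower) with only the 8 arrays in the fit, and leaving out 1 replicate gave 29 to 53, lowest without BM-derived replicate 1 (29) and retransferred replicate 3 (30). No called gene reversed its direction in any alternative, and 15 were called in every one (Apoc1, Wfdc10, Xlr, Tcim, Adgrl3, Wwtr1, Tcaf1, Grk3, Rps4l, Tmem30b, Coro2b, Slc22a17, Arhgap15, Hnmt and Lrg1). The call was lost in at least 50% of the alternatives for 9 genes (Actr8, Awat1, Cmbl, Gbe1, Msr1, Pkib, Plaat3, Scgb1a1 and Slc7a1). None of the 13 named genes that were not called passed in any.

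Deviations of same-numbered BM-derived and retransferred arrays had r of -0.037, 0.029, -0.024 and 0.193, and differently numbered pairs had -0.165 to 0.187. So few pairs cannot decide whether equal replicate numbers stand for a shared batch or shared animals. Replicate 4 had the lowest Xist in BM-derived, FL-derived and YS-derived macrophages (6.96, 6.68 and 6.37), but 8.62 in retransferred macrophages. A link by replicate number was not tested further. With the replicate block 58 genes were called, 49 of them among the 52. With the replicate block and only the arrays compared, an alternative added after seeing the data, 26 genes were called between BM-derived and retransferred macrophages, against 32 on the same arrays without the block. Between BM-derived and native macrophages that fit called 99, against 129 on the same arrays without the block, and between retransferred and native macrophages it called 70, against 97. On all arrays the block gave 152 and 131 for the native comparisons, against 160 and 131 without it.

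The 35 genes called with the same sign between donors were 23 with only the arrays compared, 20 with the replicate block as well, and 20 to 36 leaving out 1 replicate; the 5 with opposite sign were 2, 2 and 3 to 7. Leaving out 1 replicate gave 3855 to 4247 genes between donors, 111 to 170 between BM-derived and native and 88 to 117 between retransferred and native macrophages. Higher genes made up 44.8% of donor calls, against 33.6% with a common array median and 52% with quantile normalisation. RMA values give no detection call: of the 52 genes, 16 had 1 group below the table median and 2, Fam135a and Rbms3, had both.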

Other observations

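Some genes that were not called are given by their values. Cxcr1, a receptor for neutrophil-attracting chemokines, had 7.64, 7.66, 7.17 and 7.41 in BM-derived macrophages, against 8.62, 8.74, 8.78 and 7.56 in retransferred macrophages (-0.95 ± 0.25, adjusted p = 0.0868). Cfp, which encodes properdin of the alternative complement pathway, had 9.41, 9.41, 9.85 and 9.05 in BM-derived macrophages, against 8.86, 9.04, 8.58 and 8.91 in retransferred macrophages (0.58 ± 0.16, adjusted p = 0.122). Meis1, a homeobox factor of haematopoietic stem cells, had 4.70, 4.39, 4.40 and 4.22 in BM-derived macrophages, against 5.42, 5.34, 4.99 and 4.98 in retransferred macrophages (-0.75 ± 0.22, adjusted p = 0.189). The arrays did not overlap for Cfp and Meis1 but neither passed adjustment. Fn1, which encodes fibronectin, had 7.28, 7.19, 7.80 and 7.24 in BM-derived and 6.61, 7.14, 6.36 and 5.82 in retransferred macrophages, both below the 9.97 to 10.47 of native macrophages (0.89 between BM-derived and retransferred macrophages, adjusted p = 0.501). These genes were chosen after their values were seen.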
